A study of Rattus norvegicus with 12 samples.

Results

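The unfolded protein response and the integrated stress response were followed in rat liver through 10 genes, Hspa5, Hsp90b1, Dnajb9, Herpud1, Xbp1, Atf4, Ddit3, Atf3, Trib3 and Asns. The genes were taken by name: each is the only gene symbol of 1 probe set, so the 10 genes are 10 of the 19418 probe sets measured, of which 13327 carry exactly 1 symbol, and none had a second probe set to choose from. The livers came from 12 Sprague Dawley rats fed 1 of 3 diets for 7 days, with 4 rats and 4 arrays per diet. NO-naproxen, a nitric oxide-releasing derivative of the nonsteroidal anti-inflammatory drug naproxen, was given at 550 mg per kg of diet. Naproxen itself was given at 400 mg per kg of diet, and the controls were given the control diet. The doses by weight differ between the drugs. The titles call the arrays biological replicates, and the labels give neither sex nor age, litter or batch.

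When unfolded protein builds up in the endoplasmic reticulum (ER), the sensors IRE1, PERK and ATF6 are released from the chaperone BiP. IRE1 splices the Xbp1 transcript, ATF6 is cut to a free transcription factor, and PERK phosphorylates the initiation factor eIF2. Amino acid shortage, haem shortage and double-stranded RNA act on other eIF2 kinases, and all of them favour translation of ATF4, which turns on Atf3, Ddit3, Trib3 and Asns; this shared branch is the integrated stress response. Hepatocytes secrete most plasma proteins and hold a large ER. The arrays read total transcript levels, so the splicing of Xbp1 and the phosphorylation of eIF2 were not measured.

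These branches are known to act through short DNA elements, and the promoters of 4 of the 10 genes are shown because they hold a match to an element of the ER branch. The ER stress response element, written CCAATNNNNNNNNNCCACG, was searched on both strands of the 250 bases before each start site in RefSeq's rat build GRCr8. It was found in 3 of the 9 member promoters that were available, against 22 of 33469 promoters, or 0.0657%. A shorter form, ATTGG and CCACG with 1 base between them, stood in the Herpud1 promoter and in 0.0418% of all promoters. The shorter form was added to the search after the promoters had been read. The 10 genes were taken by name as members of this response, so the share among them is not an independent test. A match is a description of the letters and does not show that a factor binds there. Capitals mark matches to either form and, in Herpud1, a match to the ATF4 element TGATGNAA read on the opposite strand, which 3.40% of promoters hold. The windows are chr3:38452766-38453015 on the plus strand for Hspa5, chr7:23012294-23012543 on the minus strand for Hsp90b1, chr14:84604373-84604622 on the plus strand for Xbp1 and chr19:10614708-10614957 on the minus strand for Herpud1, each read 5′ to 3′ along the gene.
Hspa5: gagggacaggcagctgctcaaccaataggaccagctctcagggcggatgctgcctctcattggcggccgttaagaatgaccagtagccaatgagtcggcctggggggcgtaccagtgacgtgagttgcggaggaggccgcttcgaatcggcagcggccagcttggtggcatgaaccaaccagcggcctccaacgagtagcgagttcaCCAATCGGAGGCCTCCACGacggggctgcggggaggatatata
Hsp90b1: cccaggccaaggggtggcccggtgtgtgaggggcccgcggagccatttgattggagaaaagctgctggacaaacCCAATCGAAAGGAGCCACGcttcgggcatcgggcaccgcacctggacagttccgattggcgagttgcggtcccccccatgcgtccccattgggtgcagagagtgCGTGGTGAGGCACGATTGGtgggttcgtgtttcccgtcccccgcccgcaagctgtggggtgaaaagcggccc
Xbp1: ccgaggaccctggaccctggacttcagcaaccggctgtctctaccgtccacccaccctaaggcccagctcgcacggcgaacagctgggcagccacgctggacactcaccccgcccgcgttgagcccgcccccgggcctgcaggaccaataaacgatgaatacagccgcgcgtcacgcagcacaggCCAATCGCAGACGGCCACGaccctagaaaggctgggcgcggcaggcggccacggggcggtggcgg
Herpud1: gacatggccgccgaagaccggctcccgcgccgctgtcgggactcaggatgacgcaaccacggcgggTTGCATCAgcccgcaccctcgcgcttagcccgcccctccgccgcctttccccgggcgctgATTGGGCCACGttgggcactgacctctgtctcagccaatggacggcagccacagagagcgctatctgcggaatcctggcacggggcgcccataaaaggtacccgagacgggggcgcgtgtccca
The Hsp90b1 promoter held 2 matches, 1 on each strand, at -176 to -158 and -72 to -54, counted in bases from the start site. Those of Hspa5 and Xbp1 held 1 match each, at -43 to -25 and -65 to -47. Trib3 also had a match to the ATF4 element, at -21 to -14 on the opposite strand. For the core of the element bound by spliced XBP1 only the form TGACGTGG was searched, and it was in 0 of the 9 windows and in 0.520% of all promoters. The Hspa5 window holds TGACGTGA, which differs in its last base. How many promoters hold that form was not counted. The sequence CCACG, which lies inside both forms of the ER stress element, was in 8 of the 9 and in 27.2% of all. The promoter of Atf3 was not analysed here.

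Each array gave intensities on a linear scale with a median between 89.8 and 118. Log2 values are log2(intensity + 16), which understates the change of dim probe sets. A mean over the 12 arrays above 6.44, the 95th percentile of 971 olfactory and vomeronasal receptor probe sets, was taken as above background. By this bound 7 of the 10 genes were above background, while Ddit3, Atf3 and Asns lay within the olfactory receptor range at 6.35, 6.01 and 5.74. With the 90th percentile, 6.14, as the bound, Ddit3 was also above background. All 8 measured hepatocyte markers were above that range, so the defining genes of the labelled tissue were detected. Since whole liver was measured, fewer cells of a type and less RNA per cell cannot be told apart.

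No gene of the response differed between any pair of diets after adjustment over all probe sets. In limma, with Benjamini-Hochberg adjustment over all 19418 probe sets, 0 of 10 were called with NO-naproxen against control, with naproxen against control and with NO-naproxen against naproxen. The share of all probe sets called was also 0% in each of these comparisons. The limma test of any difference among the 3 diets also called 0 of 10, against 0% of all, and at an unadjusted p under 0.05 it had 0 of 10, against 7.91% of all. At an unadjusted p under 0.05 the count was 1 of 10 with NO-naproxen against control, where 10.4% of all probe sets passed. It was 0 of 10 with naproxen against control, against 12.7% of all, and 0 of 10 between the drugs, against 1.92% of all. The study's own criterion, that p together with a change of at least 1.5-fold, was met by 0 of 10 in each, against 3.8%, 5.85% and 0.572% of all probe sets in the same order of comparisons. A fitted change of at least 1.5-fold, whatever its p, was found for 0 of 10 in each, against 5.21%, 7.35% and 0.85% of all. In no comparison did the arrays of the compared diets stand apart for any member, while they did for 3.35%, 4.5% and 1.17% of all probe sets.

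The typical size of the 10 differences was set beside that of all probe sets, which were dimmer and more variable. The median log2 level was 10.1 for the 10 genes and 6.92 over all, and the median within-diet SD 0.22 and 0.30. Probe sets of like level were not compared in this way. The median absolute log2 fold change of the 10 genes was 0.10 with NO-naproxen against control, where it was 0.22 over all probe sets, and with naproxen against control it was 0.083 against 0.21. Between the drugs it was 0.12 against 0.13. These medians moved with the scaling. For naproxen against control the 10 genes had 0.18 after median centring, against 0.23 over all probe sets, and 0.16 after quantile normalization, against 0.20. With the arrays' interquartile range as a covariate they had 0.16, above the 0.15 of all probe sets. With NO-naproxen against control the 10 genes lay below all probe sets in each of the 20 alternatives, at 0.083 to 0.18. With naproxen against control they did so in 19 of the 20, and between the drugs in 13 of the 20. Left-out arrays that moved the median of the 10 by over 1.5 times were naproxen replicate 4 (0.17), control replicate 2 (0.14) and control replicate 3 (0.15) for naproxen against control. For NO-naproxen against control they were NO-naproxen replicate 3 (0.18) and control replicate 2 (0.16), and between the drugs NO-naproxen replicates 2 (0.054), 3 (0.22) and 4 (0.18). Between the drugs, the 10 genes lay above all probe sets without NO-naproxen replicate 3 or 4, where all probe sets had 0.16 each time. The signed medians of the 10 were 0.041, 0.057 and 0.023 in the same order of comparisons, and 5, 6 and 5 of the 10 fitted changes lay above 0. Over all probe sets the signed medians were 0.00044, -0.034 and 0.062. Both drugs were set against the same 4 control arrays.

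**Figure D1:**
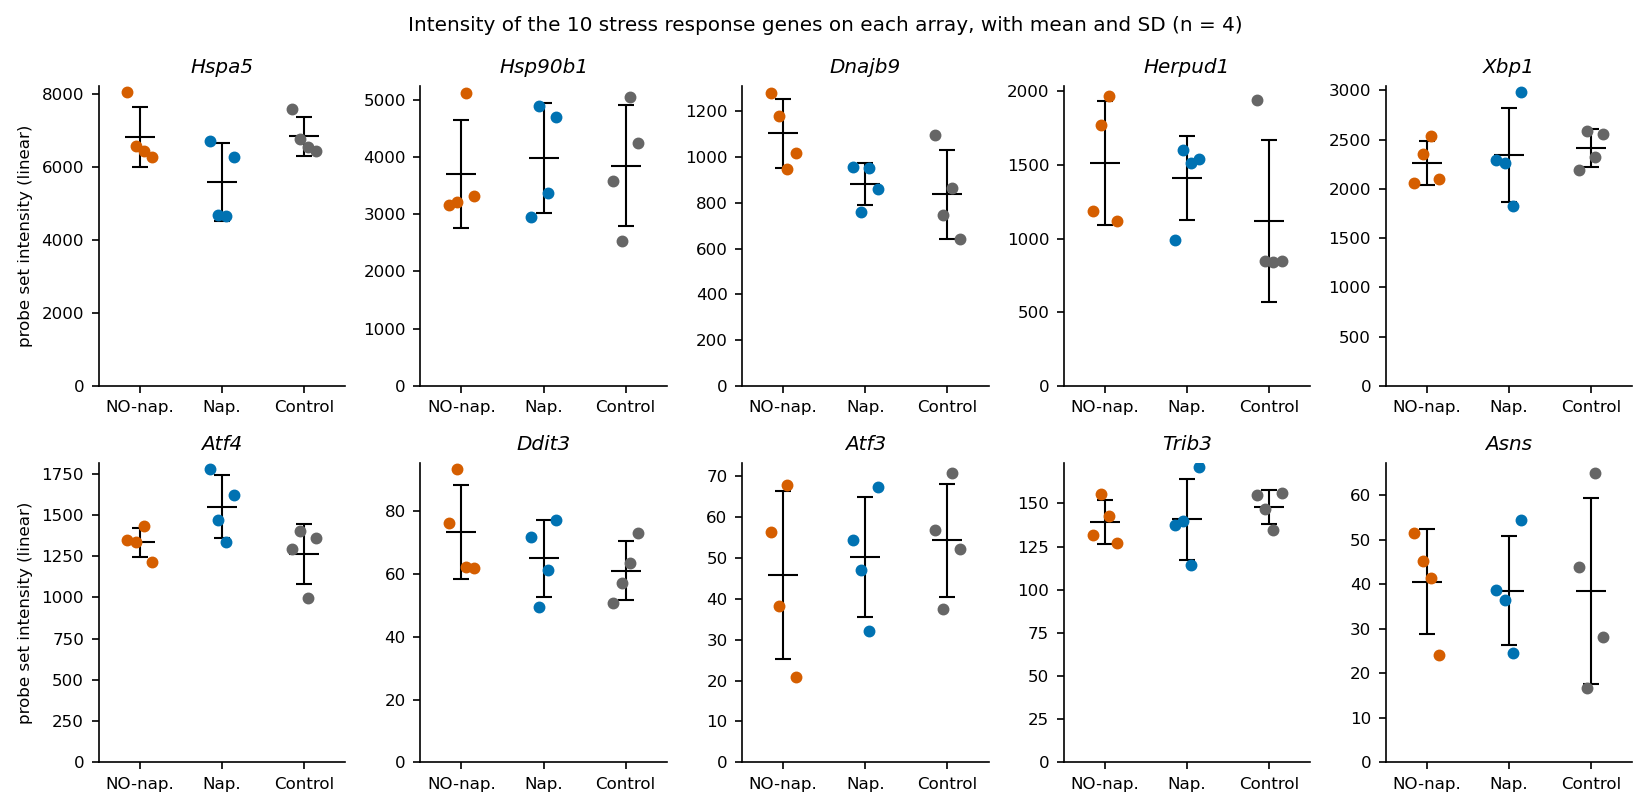
Each panel plots the linear probe set intensity of 1 gene, with 1 point per array, grouped as NO-naproxen, naproxen and control; the black mark is the mean and the bar the SD (n = 4). The diets overlap in every panel, and in the Herpud1 panel 3 control arrays lie between 840 and 849 while the control of replicate 1 is at 1941.

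Among the chaperones of the ER lumen, Hspa5 encodes BiP, the chaperone whose release switches the sensors on. Its intensity was 8046, 6571, 6442 and 6267 with NO-naproxen, 6726, 4698, 4659 and 6288 with naproxen, and 7602, 6762, 6551 and 6438 in controls. A pair of naproxen arrays lay below every other array, while the remaining pair lay within the range of the other diets. All 4 naproxen arrays lay below the control mean on the log2 scale. The log2 fold change was -0.01 ± 0.17 (SE) for NO-naproxen against control and -0.31 ± 0.17 for naproxen against control (limma adjusted p = 0.989 and 0.438). Between the drugs it was 0.30, with a 95% interval of -0.06 to 0.66.

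Hsp90b1, the ER paralogue of HSP90 known as GRP94, gave 3157, 3210, 5109 and 3315 with NO-naproxen, 2941, 4890, 3375 and 4703 with naproxen, and 3571, 2536, 5049 and 4241 in controls. Each diet held rats at both ends, and 1 NO-naproxen array stood far above the other 3. Its within-diet SD of 0.37 log2 units was larger than that of 96.0% of the 202 probe sets within 0.5 log2 units of its mean. Fitted changes were -0.04 ± 0.24 with NO-naproxen and 0.06 ± 0.24 with naproxen against control (log2 fold change, SE).

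The level of Hsp90b1 moved with a property of the arrays, the interquartile range of all log2 values on an array. Pearson's r between them was -0.72 over 12 arrays (permutation p = 0.00977, adjusted p = 0.0977 over the 10 genes) and Spearman's rho was -0.78 (permutation p = 0.00453, adjusted p = 0.0453). Without the 2 arrays farthest from the median of that range r was -0.78, and for deviations from the diet means it was -0.89 (exact permutation within diets, p = 0.000868). Of the other members, Dnajb9 had a rho of 0.57 and Atf3 of -0.52, at adjusted p of 0.278 and 0.296 (permutation). How many of all probe sets moved as closely with the interquartile range was not counted. The interquartile range was 2.07 to 2.62 with NO-naproxen, 2.20 to 2.53 with naproxen and 1.94 to 2.37 in controls. The controls of replicates 3 and 4 had the narrowest of the 12. With the range as a covariate the log2 fold change of Hsp90b1 was 0.40 with NO-naproxen and 0.46 with naproxen against control, each at an unadjusted p under 0.05 but with limma adjusted p of 0.998 and 0.849. Over the 24 alternative settings the adjusted p ran upward from 0.501 for NO-naproxen and from 0.647 for naproxen.

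**Figure D2:**
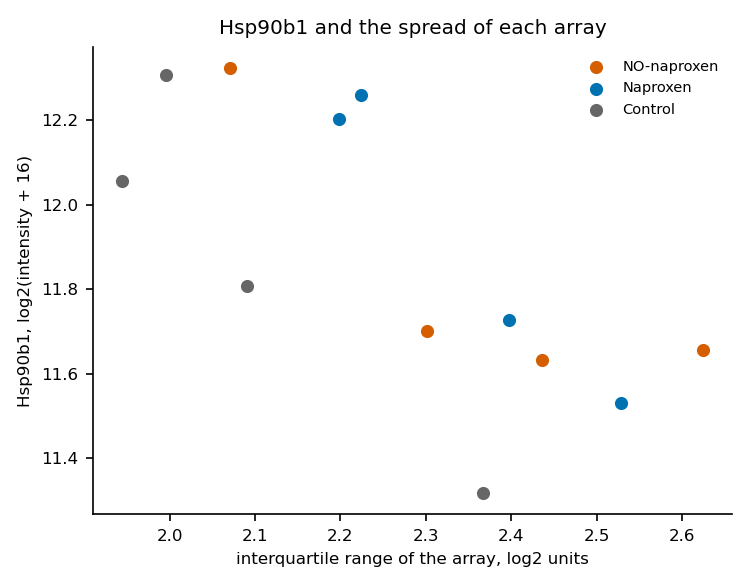
The log2 level of Hsp90b1 is plotted against the interquartile range of each array in log2 units, with 1 point per array coloured by diet. Arrays with a wider range have lower Hsp90b1 values, r = -0.72 over the 12 arrays.

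Dnajb9, or ERdj4, is a co-chaperone of BiP and a textbook target of spliced XBP1. It was the member with the smallest p. Intensities were 1278, 1177, 946 and 1015 with NO-naproxen, 955, 761, 954 and 862 with naproxen, and 1097, 746, 862 and 641 in controls. All 4 NO-naproxen arrays lay above the control mean, yet 1 control array exceeded a pair of them. On the log2 scale Dnajb9 averaged 10.12 ± 0.19 with NO-naproxen, 9.81 ± 0.15 with naproxen and 9.71 ± 0.32 in controls (SD, n = 4). The log2 fold change for NO-naproxen against control was 0.41 ± 0.18 (SE), 1.33-fold, with a 95% interval of 0.02 to 0.80 and an adjusted p of 0.468 in limma. An exact permutation test of the 4 against 4 arrays gave p = 0.0857, where the smallest possible is 0.0286. Against naproxen the NO-naproxen value was higher by 0.31, with an interval of -0.08 to 0.70, and naproxen against control gave 0.10 ± 0.18.

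Herpud1 encodes a membrane protein of the machinery that retrieves misfolded proteins from the ER for degradation. It had the largest fitted differences from control, and its controls had the largest SD of the 10 genes on the log2(intensity + 16) scale, although on the linear scale the dim Asns controls had a larger coefficient of variation, 54.2% against 48.9%. Intensities were 1188, 1769, 1965 and 1119 with NO-naproxen, 988, 1601, 1511 and 1542 with naproxen, and 1941, 849, 840 and 847 in controls. The controls of replicates 2, 3 and 4 lay between 840 and 849, below all 8 drug-fed arrays, while the control of replicate 1 was above all drug-fed arrays but 1. The log2 fold change was 0.49 ± 0.28 (SE) with NO-naproxen and 0.41 ± 0.28 with naproxen against control, at adjusted p of 0.473 and 0.509 in limma. Without control replicate 1 these were 0.78 and 0.70, with unadjusted p of 0.00462 and 0.0093 and adjusted p of 0.538 and 0.493. Herpud1 then met the study's criterion in both comparisons, the only member to do so in any setting run. Adjusted p over the 24 alternatives reached down to 0.396 with NO-naproxen and 0.379 with naproxen. The within-diet SD of 0.45 was larger than that of 96.4% of the 822 probe sets of like mean.

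**Figure D3:**
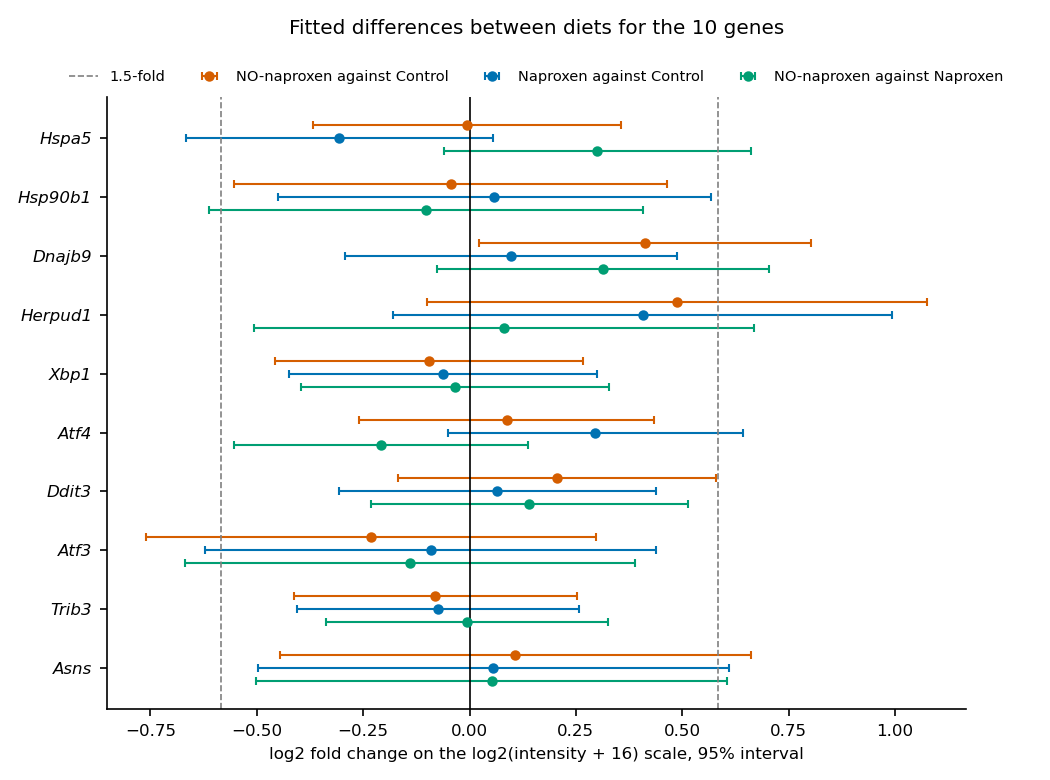
Points are fitted log2 fold changes of the 10 genes on the log2(intensity + 16) scale and bars their 95% intervals, for NO-naproxen against control, naproxen against control and NO-naproxen against naproxen; dashed lines mark 1.5-fold. The interval of Dnajb9 with NO-naproxen against control, 0.02 to 0.80, is the only one of the 30 that does not include 0.

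Xbp1 encodes the transcription factor that IRE1 activates by splicing. Its intensity was 2059, 2349, 2532 and 2098 with NO-naproxen, 2297, 2257, 1825 and 2985 with naproxen, and 2194, 2588, 2320 and 2553 in controls. The naproxen group held both the lowest and the highest of the 12 values. Fitted log2 fold changes were -0.10 with NO-naproxen and -0.06 with naproxen against control, with 95% intervals of -0.46 to 0.27 and -0.42 to 0.30. Both intervals lie inside a 1.5-fold change either way.

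Atf4 is the factor at the centre of the integrated stress response and is controlled mostly through its translation, which the arrays do not read. Intensities were 1351, 1336, 1433 and 1218 with NO-naproxen, 1779, 1467, 1339 and 1618 with naproxen, and 1294, 1404, 998 and 1360 in controls. All 4 naproxen arrays lay above the control mean, and 3 of them above every other array. The log2 fold change with naproxen against control was 0.30 ± 0.16 (SE; limma adjusted p = 0.433; exact permutation p = 0.0857), and with NO-naproxen against control it was 0.09 ± 0.16. Between the drugs it was -0.21, with an interval of -0.55 to 0.14.

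The stress-induced factors downstream of ATF4 were dim. Ddit3, which encodes the pro-apoptotic factor CHOP, gave 76.1, 93.3, 62.0 and 61.9 with NO-naproxen, 71.9, 49.5, 61.3 and 77.1 with naproxen, and 50.8, 57.2, 63.4 and 72.9 in controls. The highest value was a NO-naproxen array and the lowest a naproxen array, with the rest mixed. Its log2 fold changes were 0.21 ± 0.18 with NO-naproxen and 0.07 ± 0.18 with naproxen against control (SE). Atf3, a repressor that is also counted among the immediate early genes, gave 56.3, 38.1, 67.8 and 20.9 with NO-naproxen, 54.4, 47.1, 32.2 and 67.2 with naproxen, and 56.6, 37.4, 70.7 and 52.2 in controls. Its values spread over 3.39-fold with no order by diet, and the fitted changes were -0.23 ± 0.25 and -0.09 ± 0.25 against control. On the same arrays the immediate early gene Dusp1, a phosphatase of MAP kinases, had a log2 fold change of -1.38 with NO-naproxen and -1.39 with naproxen against control. Egr1, an immediate early transcription factor, had 1.28 and 1.41. Neither passed the adjusted threshold (limma adjusted p = 0.468 with NO-naproxen and 0.381 with naproxen for both).

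Trib3, a pseudokinase that restrains AKT and ATF4, was the steadiest of the 10. Its intensity was 132, 155, 143 and 127 with NO-naproxen, 138, 140, 114 and 171 with naproxen, and 155, 147, 134 and 156 in controls. The within-diet SD was 0.15 log2 units, against a median of 0.29 over the 4203 probe sets of like mean, and it was larger than that of 2.36% of them. Fitted changes were -0.08 with NO-naproxen and -0.07 with naproxen against control, and their 95% intervals, -0.41 to 0.25 and -0.41 to 0.26, lie inside 1.5-fold either way. Asns, asparagine synthetase, is the enzyme by which the amino acid arm is usually read. It gave 51.5, 45.2, 41.4 and 24.0 with NO-naproxen, 38.7, 36.5, 24.6 and 54.5 with naproxen, and 44.0, 16.8, 64.9 and 28.2 in controls. The controls held both the lowest and the highest value, and the fitted changes were 0.11 ± 0.26 and 0.06 ± 0.26 (SE) against control.

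Of the 45 pairs among the 10 genes, 32 had a Pearson's r above 0 over the 12 arrays, with a median of 0.24 and a range of -0.47 to 0.85. After Benjamini-Hochberg adjustment over the 45 pairs 1 pair passed, Xbp1 with Trib3. Its r was 0.85 (permutation p = 0.0007, adjusted p = 0.0315) and its Spearman's rho 0.80 (permutation p = 0.00242, adjusted p = 0.0677). Without the 2 arrays farthest from the median of Xbp1, r was 0.58. For deviations from the diet means r was 0.84 (exact permutation within diets, p = 0.0214, adjusted p = 0.482), and within the diets it was 0.73 with NO-naproxen, 0.996 with naproxen and 0.12 in controls, with 4 arrays each. The lowest and the highest values of both genes belonged to the naproxen arrays of replicates 3 and 4, and the relation rested in part on them.

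The other close pair was Atf3 with Asns, both within the olfactory receptor range. Their r was 0.74 (permutation p = 0.00565, adjusted p = 0.127) and their rho 0.80 (permutation p = 0.00301, adjusted p = 0.0677). It was 0.68 without the 2 farthest arrays and 0.81 for deviations from the diet means (exact permutation within diets, p = 0.00116, adjusted p = 0.0521). Within the diets r was 0.79 with NO-naproxen, 0.98 with naproxen and 0.98 in controls. No pair of the 3 genes whose promoters hold the long ER stress element passed this test. Pearson's r was 0.32 for Hsp90b1 with Xbp1, -0.30 for Hspa5 with Hsp90b1 and 0.23 for Hspa5 with Xbp1, at adjusted p of 0.741, 0.741 and 0.767 (permutation).

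**Figure D4:**
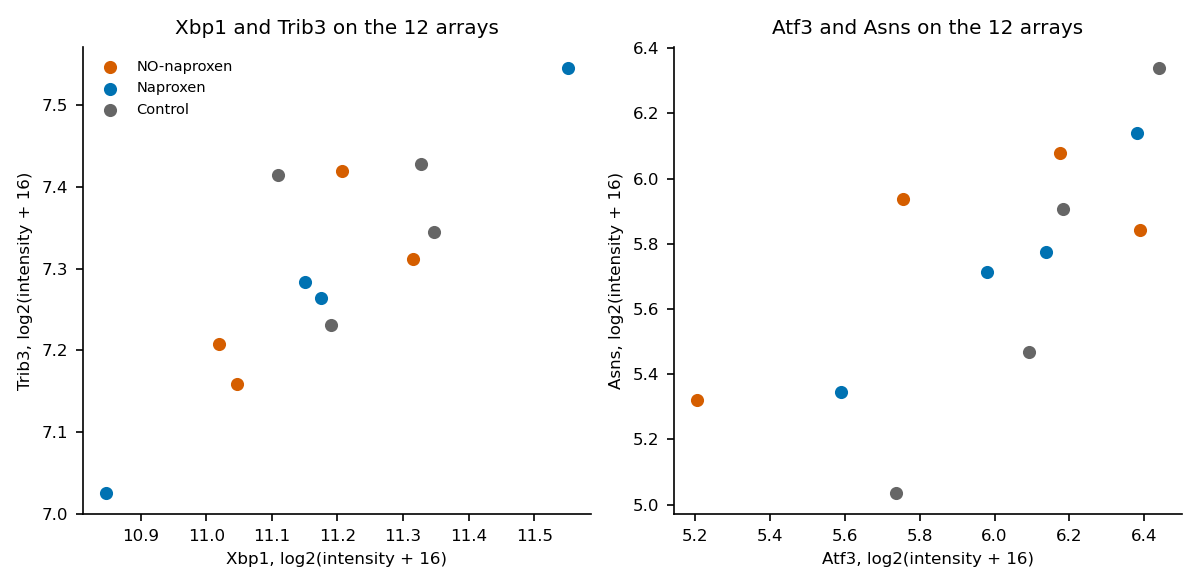
Log2 levels of Xbp1 against Trib3 (left) and Atf3 against Asns (right), 1 point per array, coloured by diet. The lowest and the highest Xbp1 points are both naproxen arrays and are also the lowest and highest for Trib3; the Atf3 and Asns points of all 3 diets follow a rising line.

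Among 9837 named genes above background, the 2 whose log2 profile over the 12 arrays was most like that of each member are given as a description. All the profiles share the same 12 arrays. For Hspa5 they were Creb3l1, which encodes an ER-resident transcription factor of the OASIS family (r = 0.93), and Tmtc4 (r = 0.91). For Herpud1 they were Anp32b (r = 0.94) and the autophagy gene Gabarapl1 (r = 0.91), for Dnajb9 Foxo4 (r = 0.91) and Cops4 (r = 0.90), and for Hsp90b1 Aldh2 (r = 0.95) and Areg (r = 0.93). Atf4 ran closest with Akr1c14 (r = 0.88) and Cd44 (r = 0.86), Xbp1 with Naa60 and Trib3 (both r = 0.85), and Trib3 with Neu2 (r = 0.89) and Eif3b (r = 0.88).

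The wider pathway was read through 79 further measured genes in 7 lists. With NO-naproxen against control 64 of the 79 had a fitted change above 0, where 50.1% of all probe sets did, and their median log2 fold change was 0.20, against 0.00044 over all probe sets and 0.095 over the probe sets above background. With naproxen against control 46 of 79 lay above 0, against 45.9% of all, with a median of 0.047 against -0.034 over all and 0.048 over those above background. Between the drugs 68 of 79 were above 0, against 64.1% of all, with a median of 0.12 against 0.062. Most of the 79 were above background, while 37.9% of all probe sets were not. The shares and medians of all probe sets, here and under the alternatives, are therefore not matched for level. None of the 79 passed the limma test adjusted over all probe sets in any of the 3 comparisons. At an unadjusted p under 0.05 the counts were 9 with NO-naproxen, 8 higher and 1 lower, where 5.49% of all probe sets were higher and 4.86% lower. They were 5 with naproxen, 2 higher and 3 lower, against 3.16% and 9.5% of all, and 1 between the drugs, which was higher, against 1.28% higher and 0.644% lower. The totals are 11.4%, 6.33% and 1.27% of the 79, beside the 10.4%, 12.7% and 1.92% of all probe sets.

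The shift of the pathway genes moved with the scaling and with the arrays' spread. For NO-naproxen against control 49 of 79 lay above 0 after quantile normalization, with a median of 0.070 against 0.0095 over all probe sets. With the arrays' interquartile range as a covariate 56 did, with a median of 0.098 against 0.036 over all. Without the 2 narrowest control arrays 52 did, with 0.090 against 0.026. Without NO-naproxen replicate 2, the array of widest range, 57 did, with 0.12 against -0.0094. With naproxen against control the median was -0.053 with that covariate, against -0.031 over all, and -0.070 without the narrowest arrays, against -0.035. Centring each array on its median moved the median of all probe sets with naproxen against control by over 0.1, to 0.081, and that of the pathway genes to 0.16. 

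**Figure D5:**
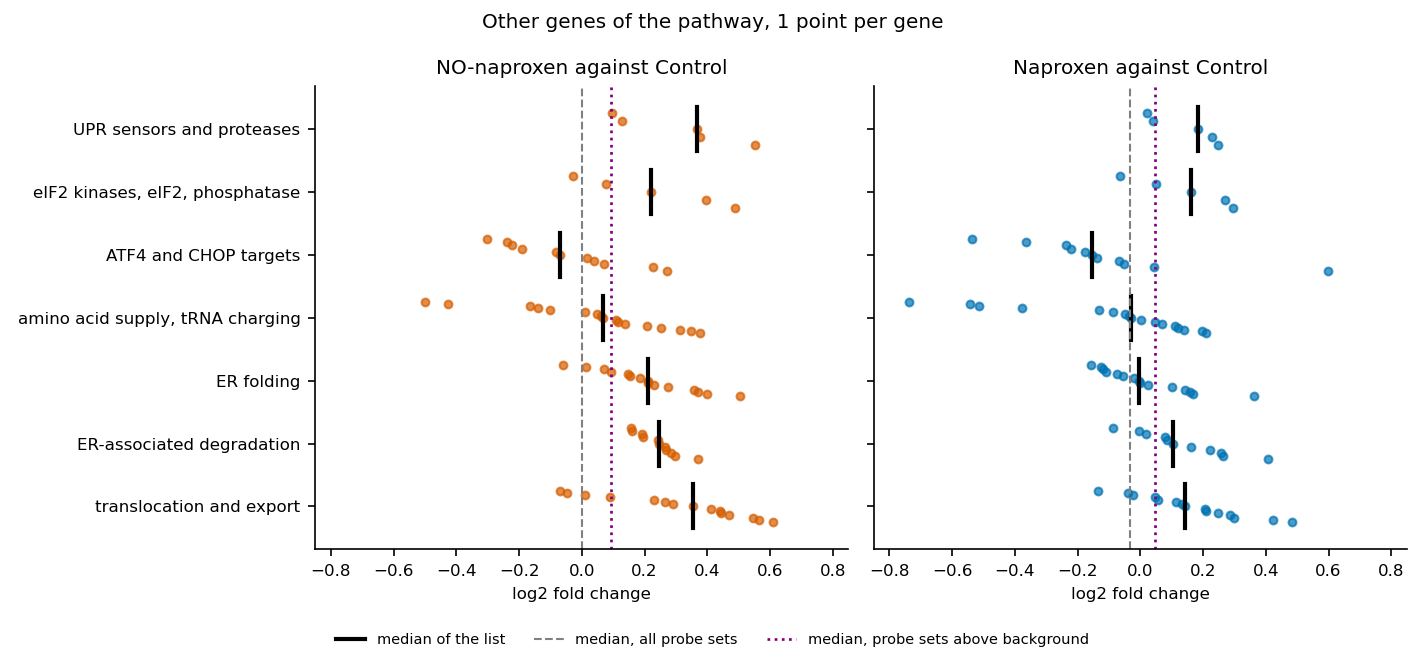
Each point is the fitted log2 fold change of 1 pathway gene outside the 10, by list, with NO-naproxen against control on the left and naproxen against control on the right; black bars are list medians, the dashed line the median of all probe sets and the dotted line that of probe sets above background. With NO-naproxen the medians of 5 of the 7 lists lie right of the dotted line, with translocation and export at 0.36; the counts above 0 fall after quantile normalization.

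The list of sensors and their processing proteases had a median of 0.37 with NO-naproxen against control, and of 0.18 with naproxen against control, with 5 of 5 measured genes above 0 in both. The log2 fold change of Eif2ak3, which encodes PERK, was 0.37 ± 0.22 (SE) with NO-naproxen and 0.25 ± 0.22 with naproxen, at adjusted p of 0.483 and 0.613 in limma. The sensor genes Ern1 and Atf6 were not analysed here. Mbtps2, the site-2 protease that releases ATF6 from its membrane anchor, had 0.55 ± 0.25 and 0.23 ± 0.25, the first at an unadjusted p of 0.0415 (adjusted p = 0.468). In the list of eIF2 kinases, eIF2 and its phosphatase, 4 of 5 genes were above 0 with each drug against control, with medians of 0.22 with NO-naproxen and 0.16 with naproxen. Eif2ak1, the haem-regulated eIF2 kinase, had 0.49 ± 0.20 with NO-naproxen and 0.27 ± 0.20 with naproxen.

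Genes for translocation into the ER and export from it had a median of 0.36 with NO-naproxen and 0.14 with naproxen against control, with 13 and 12 of 15 above 0. At an unadjusted p under 0.05 there were 4 of 15 with NO-naproxen, all higher, where 5.49% of all probe sets were higher, and 1 of 15 with naproxen, also higher, where 3.16% of all were. Ssr1, a subunit of the complex beside the translocation channel, had the smallest p of the list in both, with log2 fold changes of 0.61 ± 0.20 (SE) and 0.48 ± 0.20 (unadjusted p = 0.00694 and 0.026, limma adjusted p = 0.468 and 0.383). Sec31a, a coat protein of the vesicles that leave the ER, had 0.56 with NO-naproxen, and Sec62, part of the translocation machinery, 0.55. Degradation genes had medians of 0.25 and 0.10, with 11 and 9 of 11 above 0 and none at an unadjusted p under 0.05 in limma. Folding genes had medians of 0.21 with NO-naproxen and -0.0047 with naproxen, with 14 and 6 of 15 above 0. In that list Fkbp2, a prolyl isomerase of the ER, had 0.50 ± 0.20 with NO-naproxen against control. Manf, a secreted ER stress protein, was the pathway gene under that unadjusted threshold between the drugs, at 0.45 ± 0.21 for NO-naproxen against naproxen (limma adjusted p = 1.00).

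Targets of ATF4 and CHOP had medians of -0.07 with NO-naproxen and -0.16 with naproxen against control, with 5 and 2 of 11 above 0. Naproxen against control gave 0.60 ± 0.27 (log2 fold change, SE) for Nupr1, a stress-induced chromatin protein, while the cytokine gene Gdf15 had -0.54 ± 0.22 and Vldlr, a lipoprotein receptor gene within the olfactory receptor range, -0.36 ± 0.16. Genes of amino acid supply and tRNA charging had medians of 0.07 and -0.03, with 12 and 8 of 17 above 0. Phgdh and Psat1 catalyse successive steps of serine synthesis and had opposite signs with NO-naproxen. Phgdh, within the olfactory receptor range, had -0.50 ± 0.21 with NO-naproxen and -0.54 ± 0.21 with naproxen, and Psat1 had 0.31 ± 0.14 and 0.11 ± 0.14. None of these passed adjustment over all probe sets.

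Of the 21 gene symbols whose promoter held the long ER stress element, 13 were measured, 3 of them among the 10 genes. With NO-naproxen against control 7 of the 13 had a fitted change above 0, where 50.1% of all probe sets did, with a median log2 fold change of 0.071 against 0.00044 over all. With naproxen against control 5 did, where 45.9% of all did, with a median of -0.020 against -0.034. Between the drugs it was 10 of 13, where 64.1% of all were above 0, with a median of 0.15 against 0.062. Both medians against control were the values of Ero1b, whose mean log2 level of 4.74 lay within the olfactory receptor range. Calr4, Ppm1l and Zfp57 also lay within that range, at 5.70, 6.20 and 6.43. Calr, Canx, Dnajc3 and Ero1b were also counted in the list of folding genes.

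Most markers of 3 other liver cell types also had fitted changes above 0 against control. Over all probe sets, which were not matched for level, 50.1% lay above 0 with NO-naproxen and 45.9% with naproxen. The 9 Kupffer cell markers, all above background, had a summed intensity of 4739 to 7360 with NO-naproxen, 4278 to 6118 with naproxen and 3834 to 5549 in controls, with 8 and 9 of 9 above 0 against control for NO-naproxen and naproxen. The 7 stellate cell markers summed to 3090 to 4175, 3062 to 3982 and 2382 to 3744, and the 3 endothelial markers to 1003 to 1277, 1185 to 1300 and 790 to 1123, with the diets in the same order. Of the stellate markers 6 and 7 of 7 were above 0, with Des at -0.25 with NO-naproxen against control. Of the endothelial markers 3 of 3 were above 0 with each drug, but only these 3 of the 9 listed were measured. The stellate marker of smallest p, Rgs5, had 0.58 with NO-naproxen and 0.71 with naproxen against control (limma adjusted p = 0.468 and 0.381). Oit3, the endothelial marker of smallest p, had 0.29 and 0.42. Of the bile duct markers 2 and 1 of 3 were above 0, and of the neutrophil and T cell markers 3 of 5 with each drug. Only 1 of these 3 bile duct markers and 2 of these 5 neutrophil and T cell markers were above background. B and plasma cells also hold a large ER, but 4 of their 5 measured markers lay within the olfactory receptor range and all 5 had fitted changes below 0 with both drugs against control. The 8 hepatocyte markers summed to 65276 to 75441 with NO-naproxen, 62466 to 69309 with naproxen and 65561 to 73939 in controls, so the summed levels overlapped. Of the 8, 4 were above 0 with NO-naproxen against control and 2 with naproxen against control, the second with a median of -0.082. Tat, tyrosine aminotransferase, had the smallest p of the list, at -0.42 with naproxen against control (limma adjusted p = 0.391). Hnf4a, a hepatocyte transcription factor named after its values were seen, had -0.33, and its 4 naproxen arrays lay below all 4 control arrays, as 4.5% of all probe sets stood apart in either direction. The part of the other cell types in the pathway values was not tested.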

How the data were processed

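The deposited values are linear probe set intensities of whole-transcript Affymetrix arrays, 1 array per rat liver, made with Affymetrix Expression Console 1.1.1 on rn4, per the submitters' processing notes. No source used here says how the authors summarised or normalized the intensities, and either step could change a fold change. Genes were named from the platform annotation. Here log2(intensity + 16) of all 12 arrays was fitted in 1 limma 3.58.1 model (lmFit and eBayes, R 4.3.3), with Benjamini-Hochberg adjustment over all 19418 probe sets. An unadjusted p under 0.05 with at least 1.5-fold is the criterion the study states, without naming its test. The limma code was tested on simulated data. Differences of 4 against 4 arrays were also tested by exact permutation, and correlations over the 12 arrays with 100000 permutations in numpy 2.4.6. P-values weigh a difference or a correlation against the variation between these arrays, whose number limits the precision.

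The members and lists were chosen with earlier results of these data known. Named genes are the 10 members, the sensor genes, up to 3 genes per pathway list and comparison with the smallest unadjusted p under 0.05, and the 2 genes most like each member above background. Dusp1 and Egr1 were named after their values were seen. Replicate numbers are shared between diets, but deviations of same-numbered arrays correlated at -0.38 to 0.48 in 12 pairs, with 4 over 0.1, so the numbers were not taken as pairs. Alternatives were the added constant, scaling, array spread, a filter on dim probe sets, array weights, the replicate block and leaving out each array.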

Additional observations from a re-analysis of the deposited data

Results flagged for a closer look

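Of the 30 sets of 4 arrays formed by the 10 genes and 3 diets, 3 held an array far from the other 3 by Dixon's test, whose critical value for 4 samples is 0.829. Chance flags about 1 in 20 such sets. Hsp90b1 had a log2 level of 12.32 in NO-naproxen replicate 3, where the nearest of the other NO-naproxen arrays was at 11.70, a gap of 0.899 of the whole range. Herpud1 had the lowest of the naproxen values in replicate 1, at 9.97, with the nearest at 10.58 and a gap of 0.879 of the range. Herpud1 also had the highest control value in replicate 1, at 10.93, with the nearest at 9.76 and a gap of 0.988 of the range. The causes were not tested.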

How the results depend on the processing

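Under every alternative run, 0 of the 10 genes passed an adjusted p under 0.05, and the lowest adjusted p of any was 0.139. The replicate block left the count at 0 and gave Dnajb9 a limma adjusted p = 0.432 with NO-naproxen against control. Without control replicate 1 the study's criterion was met by 1 member, Herpud1, against control for each drug, so the leave-one-out counts ran from 0 to 1. The unadjusted p of Dnajb9 with NO-naproxen ran from 0.00983 to 0.24 and was under 0.05 in 15 of 24 alternatives. Over all probe sets the criterion counted 1135 with naproxen, 738 with NO-naproxen and 111 between the drugs, with ranges of 191 to 2973, 154 to 2570 and 8 to 331. Median centring changed the higher and lower probe sets from 346 and 392 to 632 and 266 with NO-naproxen against control, and from 170 and 965 to 463 and 483 with naproxen. With quantile normalization they were 371 and 603 with naproxen, and 51 and 46 between the drugs against 83 and 28. Adjusted calls over all probe sets reached 4, without control replicate 2.

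Under the alternatives, 57 fitted member values changed sign, with 24 alternatives for each gene and comparison, or 23 for Atf3 and Asns. With naproxen against control, Atf3 was 0.088 by quantile normalization, 0.024 by median centring, 0.12 with the interquartile range as a covariate and 0.062 without the 2 narrowest arrays. Dnajb9 was -0.023 with the covariate, -0.041 without the narrowest arrays and -0.020 with array weights, and Ddit3 -0.017 with the covariate. Xbp1 was 0.053 by median centring and 0.018 with weights, Trib3 0.0032 by quantile normalization and 0.041 by centring, and Asns -0.016 with weights. With NO-naproxen against control, Hspa5 was 0.064 by centring and 0.046 with weights, Hsp90b1 0.025 by centring, 0.40 with the covariate and 0.26 without the narrowest arrays, and Atf4 -0.075 by quantile normalization and -0.017 without the narrowest arrays. Between the drugs Herpud1 was -0.085 with weights and Asns -0.0056 by quantile normalization. Causes were not tested.

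Leaving out 1 array at a time, values that changed sign ran as follows. With naproxen against control they ran from -0.13 to 0.20 for Hsp90b1, -0.0060 to 0.16 for Ddit3, -0.22 to 0.053 for Atf3, -0.19 to 0.049 for Xbp1, -0.16 to 0.010 for Trib3, -0.018 to 0.24 for Dnajb9 and -0.16 to 0.27 for Asns. With NO-naproxen against control they ran from -0.087 to 0.046 for Hspa5, -0.23 to 0.10 for Hsp90b1, -0.021 to 0.14 for Atf4 and -0.11 to 0.33 for Asns. Between the drugs they ran from -0.27 to 0.0074 for Hsp90b1, -0.31 to 0.085 for Atf3, -0.15 to 0.089 for Xbp1, -0.090 to 0.083 for Trib3, -0.080 to 0.21 for Herpud1 and -0.081 to 0.21 for Asns. Atf3 and Asns, and Ddit3 by the 95th but not the 90th percentile, lie within the olfactory receptor range, which limits what their values can show.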
